A study of Mus musculus with 6 samples.

Results

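Expression of 10 genes of the BCL2 family was examined in neuro2a (N2a) cells, a mouse neuroblastoma line, after knockdown of the transcription factor NF-Y. The genes were chosen by name, and each was located on the arrays through the RefSeq accession that a probe carries. They comprised the survival genes Bcl2, Bcl2l1 and Mcl1, the effector genes Bax, Bak1 and Bok, and the BH3-only genes Bcl2l11, Bad, Bid and Bmf. All 10 had a probe, among 20145 genes with a matched probe, and 9 passed the filter on low signal, among 16490 genes tested. Labelled cDNA prepared from total RNA was hybridized to 6 single-colour Agilent mouse arrays, of which 3 carried the group labelled Vector and 3 the group labelled YAYC. Cells of both groups were N2a cells transfected with Lipofectamine and kept for 2 more days before RNA preparation. YAYC cells received plasmids of the pcDNA6.2-GW/EmGFP-miR type that express miR RNAi against NF-YA and NF-YC, and Vector cells received the vector as control. The methods of the study name both an empty vector and a non-targeting miR vector as controls, and the labels of these arrays name only the vector. RNA was taken from whole transfected cultures, so cells that took up no plasmid also contributed to it. Nothing in the labels says that the 3 arrays of a group came from separate cultures, so the p-values below measure only the spread between these samples, which may be technical.

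Proteins of the BCL2 family decide at the outer mitochondrial membrane whether a cell enters apoptosis. The effectors Bax and Bak1 form pores that release cytochrome c, the survival members bind and restrain them, and BH3-only members bind survival members or activate the effectors when a cell is stressed. In neurons, loss of trophic signals acts largely through BH3-only proteins. NF-Y binds CCAAT motifs, often close to transcription start sites.

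The promoters of the members were searched for the letters CCAAT on either strand, and also for the GC box, a motif bound by SP-family factors, which was searched as GGGCGG on either strand. In the windows of the members no match of one motif shared bases with a match of the other. Windows from RefSeq (assembly GRCm38.p6), reaching from 250 bases before to 50 bases after each start, were present for all 10 members, 16 windows in all. CCAAT was found in 3 members, Bmf, Bcl2l11 and Bad, in 5 of the windows, and in none of the windows of the other 7. Over all genes with a window, 41.1% of 27025 held it, and 37.4% of 32851 windows did. A GC box was found in 8 members, all but Bcl2l1 and Bak1, against 38.2% of all genes. Upstream stretches of 250 bases are shown: those of Bax, Bak1 and Bcl2l1, the members with the largest changes that passed the test below, and those of Bmf and Bcl2l11 with the most CCAAT matches. They run 5′ to 3′ along the gene, and capitals mark both motifs in either orientation.
Bax, chr7:45466899-45467148, minus strand: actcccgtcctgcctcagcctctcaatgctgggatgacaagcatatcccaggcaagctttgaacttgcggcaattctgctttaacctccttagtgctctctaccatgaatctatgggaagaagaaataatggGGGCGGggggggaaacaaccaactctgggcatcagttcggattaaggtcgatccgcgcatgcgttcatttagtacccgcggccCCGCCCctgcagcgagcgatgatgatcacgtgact
Bak1, chr17:27028628-27028877, minus strand: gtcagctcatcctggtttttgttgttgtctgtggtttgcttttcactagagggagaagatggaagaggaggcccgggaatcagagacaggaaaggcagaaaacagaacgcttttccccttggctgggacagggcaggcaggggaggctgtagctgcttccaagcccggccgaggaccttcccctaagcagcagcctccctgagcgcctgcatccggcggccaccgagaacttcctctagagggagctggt
Bcl2l1, chr2:152831729-152831978, minus strand: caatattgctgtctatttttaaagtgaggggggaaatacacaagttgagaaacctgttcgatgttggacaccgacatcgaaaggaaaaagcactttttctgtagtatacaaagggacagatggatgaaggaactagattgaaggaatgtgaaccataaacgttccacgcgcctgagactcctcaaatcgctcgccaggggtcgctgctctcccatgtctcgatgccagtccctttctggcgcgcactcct
Bmf, chr2:118549687-118549936, minus strand: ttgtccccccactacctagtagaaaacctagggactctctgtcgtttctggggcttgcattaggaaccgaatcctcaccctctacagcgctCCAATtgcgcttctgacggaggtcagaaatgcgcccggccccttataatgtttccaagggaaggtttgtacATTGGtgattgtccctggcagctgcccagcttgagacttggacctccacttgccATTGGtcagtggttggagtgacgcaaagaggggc
Bcl2l11, chr2:128127325-128127574, plus strand: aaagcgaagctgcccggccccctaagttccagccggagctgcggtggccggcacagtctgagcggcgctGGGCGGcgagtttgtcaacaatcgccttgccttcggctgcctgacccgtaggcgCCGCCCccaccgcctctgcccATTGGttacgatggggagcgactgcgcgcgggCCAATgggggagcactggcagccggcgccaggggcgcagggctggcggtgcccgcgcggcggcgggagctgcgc
In the Bmf window CCAAT matches began at positions -159, -88 and -34 from the start, where -1 is the base before it. In the Bcl2l11 window shown they began at -106 and -74, and the other Bcl2l11 window held 1 match at -57. The single match of Bad began at -48. A match is a description of the letters, and the absence of one says only that these letters are not in the window. Of the 5 members that passed the test below, 0 had a match. Among tested genes with a promoter window, 1115 of 5577 with CCAAT in a window fell in YAYC and 826 rose, while 979 of 7521 without it fell and 1230 rose.

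The arrays were alike in quality, and the targeted genes differed between the groups in the direction of the labels. The 75th percentile of the signal lay between 718 and 754 intensity units, 61.9% to 66.2% of the spots were well above background, and 0 spots were saturated. Nfya fell by 0.76 (SE 0.055, limma adjusted p 0.00128) and Nfyc by 1.81 (SE 0.045, limma adjusted p 0.000323) on the log2 scale, and Nfyb, the subunit that was not targeted, rose by 0.83 (SE 0.060, limma adjusted p 0.00131). All 3 separated the groups without overlap. Of 16 tested markers of sympathetic and neuronal cells, 15 were well above background on all 6 arrays, and their summed linear signal was 344 to 357 times the 75th percentile in Vector and 322 to 331 times in YAYC. Of 15 markers of glial, immune and mesenchymal cells, 10 were above background on all arrays, and Cx3cr1 and Cdh5 on none. Their summed signal was 1.35 to 1.43 in Vector and 1.08 to 1.11 in YAYC, and its part in the results below was not tested. All arrays lay on one slide, Vector 1 to 3 and YAYC 1 in its first row and YAYC 2 and 3 in its second.

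Of the 9 members tested, 3 fell in YAYC, namely Bax, Bak1 and Mcl1, and 2 rose, namely Bcl2l1 and Bid, at a limma adjusted p below 0.05. The remaining 4, Bcl2, Bok, Bad and Bmf, did not pass. Over all genes tested 31.5% passed, 15.8% lower and 15.7% higher. With a filter on signal well above background instead, 40.7% of 14549 genes passed, and the same members did. By role, 2 of 3 effectors fell and 0 rose, 1 of 3 survival genes fell and 1 rose, and 1 of 3 tested BH3-only genes rose and 0 fell. None of the changes reached 1.5-fold, a size that 8.90% of all genes passed together with the adjusted p. The arrays of the groups did not overlap for 3 members that were lower in YAYC and 3 that were higher, against 54.7% of all genes, 27.1% lower and 27.7% higher. The median change of the members was 0.031 on the log2 scale, and that of all genes was 0.0053. In RNA of a whole culture, less RNA per cell and fewer cells of one kind cannot be told apart.

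**Figure D1:**
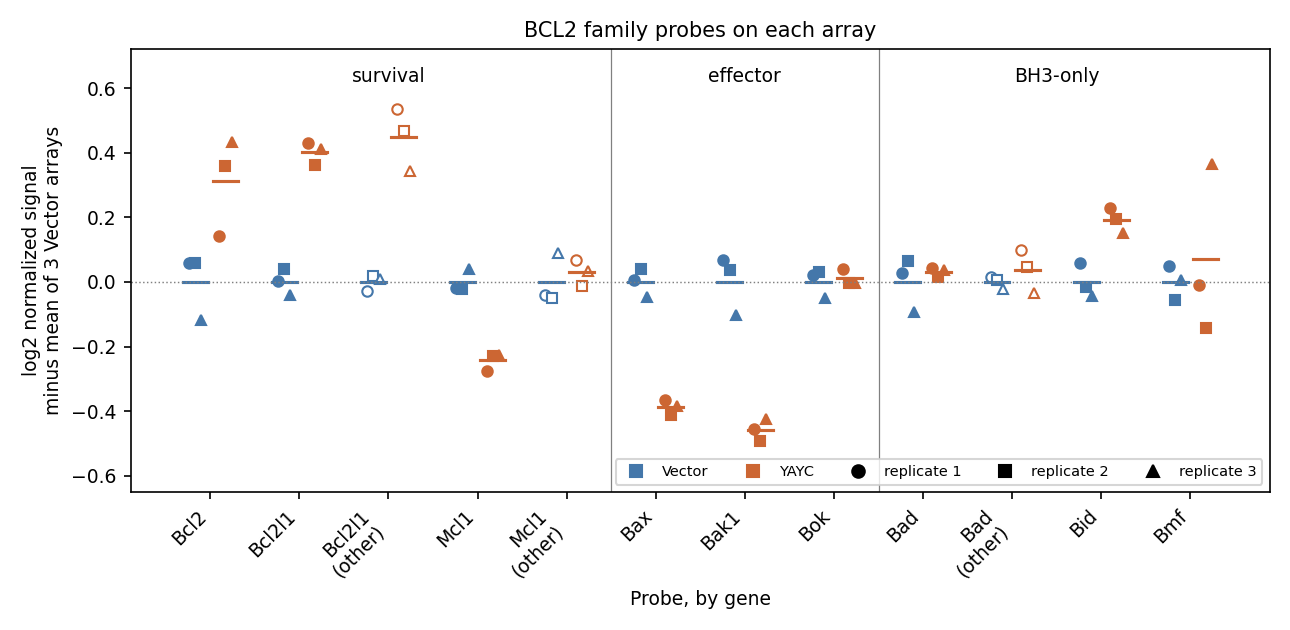
Log2 normalized signal of each tested probe of the 9 members on each array, minus its mean on the 3 Vector arrays; bars mark group means, and open symbols mark a further probe of the same gene. The YAYC arrays of Bax and Bak1 lie below all Vector arrays, and those of both Bcl2l1 probes lie above them.

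The effectors Bax and Bak1 fell after the knockdown, while the effector Bok did not pass. Bax, which moves from the cytosol to mitochondria when activated, had log2 normalized signals (log2 signal minus the 75th percentile of its array) of 4.26, 4.29 and 4.21 on the Vector arrays and 3.89, 3.84 and 3.87 on the YAYC arrays. The 3 YAYC arrays were close together and all lay below the lowest Vector array, by a gap of 0.32. In intensity units these were 14474, 14473 and 13933 in Vector against 11086, 10303 and 10682 in YAYC. Bax thus fell from 4.26 ± 0.043 to 3.87 ± 0.024 (SD, n = 3), a change of -0.39 (SE 0.044, 95% interval -0.50 to -0.27), with a limma adjusted p of 0.00436. Linear signal in YAYC was 0.765 of that in Vector (95% interval 0.707 to 0.827). A larger absolute change was measured in 25.7% of all genes tested.

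Bak1, the effector that resides at the mitochondrial membrane, had values of 3.31, 3.28 and 3.14 in Vector and 2.79, 2.75 and 2.82 in YAYC. Vector 3 was the lowest of the controls and still lay above every YAYC array, by 0.32. The mean fell from 3.24 ± 0.091 to 2.78 ± 0.035 (SD, n = 3), a change of -0.46 (SE 0.062, 95% interval -0.61 to -0.30, limma adjusted p 0.00695). YAYC signal was 0.729 of Vector signal (95% interval 0.654 to 0.812), and 20.5% of all genes changed by more. This was the largest absolute change among the tested members. With slide row as a block, Bax at -0.36 had a limma adjusted p of 0.0545 and Bak1 at -0.45 one of 0.0695, so neither call was kept. Both were kept when any single array was left out, with changes of -0.41 to -0.37 for Bax and -0.51 to -0.42 for Bak1.

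Bok, the remaining effector gene, which can permeabilize mitochondria without help from BH3-only activators, behaved differently. Its signals were 5.30, 5.31 and 5.23 in Vector and 5.32, 5.28 and 5.28 in YAYC. The groups overlapped almost fully. The change was 0.011 (SE 0.045), with a 95% interval of -0.10 to 0.13 and a limma adjusted p of 0.884. The interval excludes a fall of the size measured for Bax or Bak1. The change was -0.014 without Vector 3 and -0.0036 without YAYC 1.

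Among the survival genes, Bcl2l1 rose, Mcl1 fell and Bcl2 did not pass. Bcl2l1 encodes Bcl-xL, a survival protein prominent in neurons. Its probe read 3.55, 3.59 and 3.51 in Vector and 3.98, 3.91 and 3.96 in YAYC. All YAYC arrays lay above all Vector arrays, with a gap of 0.32. In intensity units, Vector arrays read 8832, 8857 and 8550, and YAYC arrays 11768, 10791 and 11348. The mean rose from 3.55 ± 0.040 to 3.95 ± 0.035 (SD, n = 3), a change of 0.40 (SE 0.046, 95% interval 0.29 to 0.52), with a limma adjusted p of 0.00425 and a ratio of 1.32.

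A further Bcl2l1 probe, of much dimmer signal, showed the same direction. It read -2.56, -2.52 and -2.52 in Vector and -2.00, -2.07 and -2.19 in YAYC. Again no YAYC array reached down to the Vector arrays. The change was 0.45 (SE 0.063, limma adjusted p 0.00777). The Bcl2l1 gene has 5 curated transcripts, and which of them each probe reads is not known here. When arrays were centred on their median, the change of the brighter probe was 0.28 with a limma adjusted p of 0.0694, and its call was lost. That centring moved the median of all genes by -0.12, and relative to this median the Bcl2l1 change remained 0.40.

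Mcl1, a short-lived survival protein that restrains Bak1, had signals of 4.65, 4.65 and 4.71 in Vector and 4.39, 4.44 and 4.44 in YAYC. The groups did not overlap. The mean fell from 4.67 ± 0.034 to 4.43 ± 0.027 (SD, n = 3), a change of -0.24 (SE 0.043, 95% interval -0.35 to -0.13) with a limma adjusted p of 0.0159, and YAYC signal was 0.845 of Vector signal. The further Mcl1 probe did not show this. It read 2.29, 2.28 and 2.42 in Vector and 2.40, 2.32 and 2.37 in YAYC. Its groups overlapped, and its change was 0.030 (SE 0.057, 95% interval -0.11 to 0.18, limma adjusted p 0.746). The probes of Mcl1 thus disagreed, and their mean changed by -0.11 with a limma adjusted p of 0.0860. The call also rested on having all arrays. It was kept without Vector 3 and lost without Vector 1 (-0.25, limma adjusted p 0.0543), Vector 2 (-0.25, 0.0534), YAYC 1 (-0.23, 0.0572), YAYC 2 (-0.25, 0.0554) or YAYC 3 (-0.25, 0.0587).

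Bcl2, the founding survival gene of the family, read -0.821, -0.821 and -0.999 in Vector and -0.738, -0.521 and -0.448 in YAYC. YAYC 1 lay just above the nearest Vector arrays, by 0.083, and YAYC 2 and 3 lay further up. The means were -0.88 ± 0.10 and -0.57 ± 0.15 (SD, n = 3). The change of 0.31 (SE 0.099, 95% interval 0.059 to 0.56) had a limma adjusted p of 0.0849 and did not pass. Without YAYC 1 the change was 0.40 and passed, with a limma adjusted p of 0.0495, and within the first slide row, where YAYC 1 is the only knockdown array, it was 0.14. The probe carries the accession of 1 of 2 curated Bcl2 transcripts.

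Among the BH3-only genes Bid passed, Bad and Bmf did not, and Bcl2l11 was not tested. Bid, which links death receptors to mitochondria once it has been cleaved by caspase-8, read 2.12, 2.04 and 2.02 in Vector and 2.29, 2.25 and 2.21 in YAYC. The groups were separated by 0.096. Bid rose from 2.06 ± 0.052 to 2.25 ± 0.038 (SD, n = 3), a change of 0.19 (SE 0.049, 95% interval 0.068 to 0.32), with a limma adjusted p of 0.0467 and a ratio of 1.14. This call lay close to the threshold and was lost whichever array was left out. The change was 0.22 without Vector 1, 0.19 without Vector 2, 0.17 without Vector 3, 0.17 without YAYC 1, 0.19 without YAYC 2 and 0.21 without YAYC 3, and limma adjusted p lay between 0.0709 and 0.137.

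Bad, a BH3-only protein kept inactive by growth factor signalling, read 4.46, 4.50 and 4.34 in Vector and 4.48, 4.45 and 4.47 in YAYC. YAYC arrays lay within the range of the Vector arrays. The change was 0.031 (SE 0.056, 95% interval -0.11 to 0.17, limma adjusted p 0.731). A further Bad probe read 0.86, 0.85 and 0.83 in Vector and 0.95, 0.89 and 0.81 in YAYC, and overlapped too, with a change of 0.036 (limma adjusted p 0.662). Without Vector 3 the change of the brighter probe was -0.015.

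Bmf, which senses detachment and cytoskeletal stress, read -1.47, -1.58 and -1.51 in Vector and -1.53, -1.66 and -1.15 in YAYC. YAYC 3 stood above the other 5 arrays, while YAYC 1 lay among the Vector values and YAYC 2 below them. The SD was 0.054 in Vector and 0.26 in YAYC (n = 3). The change of 0.071 (SE 0.14, 95% interval -0.29 to 0.43, limma adjusted p 0.759) took its sign from YAYC 3, without which it was -0.077. Bcl2l11 encodes Bim, a potent activator of cell death in neurons deprived of trophic factors. Its probe was well above background on 0 of the 6 arrays, with 2.38, 2.14 and 3.06 intensity units in Vector and 3.84, 3.25 and 2.92 in YAYC. The groups overlapped at this level, the probe fell below the filter on low signal, and no fold or test is given. It carries the accession of 1 of 5 curated Bcl2l11 transcripts.

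**Figure D2:**
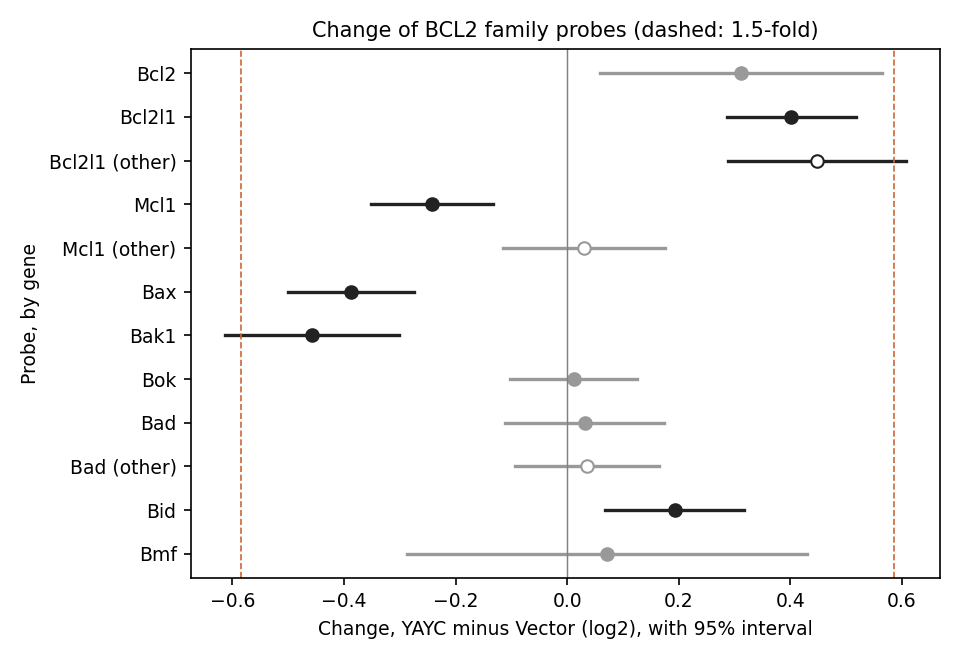
Change of each tested probe (YAYC minus Vector, log2) with its 95% interval from limma over 3 arrays a group; black marks a limma adjusted p below 0.05, grey the rest, open circles a further probe of the same gene, and dashed lines a 1.5-fold change. Bak1 at -0.46, Bax at -0.39 and Bcl2l1 at 0.40 lie furthest from 0 among the members that passed, and no change reaches the dashed lines.

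Since survival proteins act by binding effectors, 4 pairs of binding partners were compared within each array. Levels of different probes cannot be set against each other, so only the shift of each difference between groups carries meaning. For Bcl2l1 minus Bax the log2 difference was -0.71, -0.71 and -0.70 on the Vector arrays and 0.086, 0.067 and 0.087 on the YAYC arrays. Arrays of one group were nearly identical, and the groups were 0.77 apart. The mean moved from -0.71 ± 0.0041 to 0.080 ± 0.011 (SD, n = 3), a shift of 0.79 or 1.73-fold. For Bcl2l1 minus Bak1 it moved from 0.31 ± 0.064 to 1.17 ± 0.025 (SD, n = 3), a shift of 0.86 or 1.81-fold. The groups did not overlap in either pair. This had to follow, because the arrays of Bcl2l1 separated upward and those of Bax and Bak1 downward. Each shift combines the changes of both genes, so it cannot be set against the 1.5-fold limit used for single genes.

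Bcl2 minus Bax shifted by 0.70, from -5.14 ± 0.065 to -4.44 ± 0.17 (SD, n = 3), and the 3 YAYC arrays all lay above the Vector arrays. This too had to follow, because neither gene overlapped between the groups and Bcl2 lay higher, Bax lower, in YAYC. Mcl1 minus Bak1, in which both genes were lower, shifted by 0.21, from 1.43 ± 0.12 to 1.64 ± 0.045 (SD, n = 3), with a gap of 0.037 between the groups. With the further Mcl1 probe, an alternative chosen after seeing the data, this shift was 0.49. An exact permutation test, two-sided, gave p = 0.1 for each of the 4 shifts and 0.1 when adjusted over the 4 pairs, the smallest value that the 20 assignments of 6 arrays can give. A difference within an array is not affected by how that array is scaled as a whole. The 4 pairs share Bax, Bak1 and Bcl2l1 and are not independent of the changes given above. For all pairs but Mcl1 minus Bak1, the separation of the single genes fixed the permutation p at its smallest value.

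**Figure D3:**
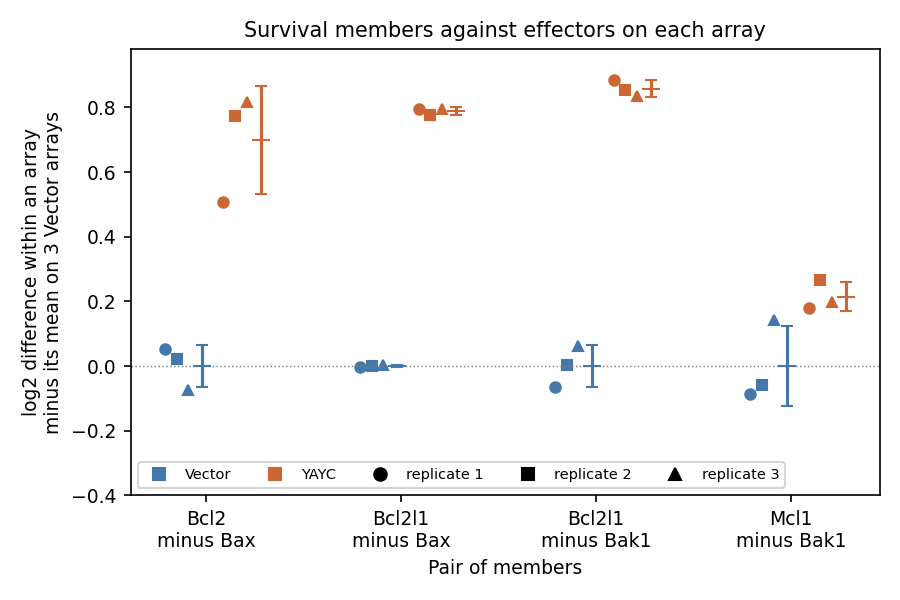
Log2 difference between a survival gene and an effector on each array, minus its mean on the 3 Vector arrays, with mean and SD of each group beside the symbols. Bcl2l1 minus Bax and Bcl2l1 minus Bak1 shifted by 0.79 and 0.86 with little spread, and Mcl1 minus Bak1 by 0.21.

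Other genes of the apoptosis pathway were counted in 5 lists, 83 genes in all. The lists were written from general knowledge, with earlier results of these data known. Of 76 tested, 14 fell and 16 rose, so 39.5% passed, against 31.5% of all genes. When arrays were centred on their median, the genes called higher dropped to 0 of the caspase list, 1 of the IAP list, 1 of the death receptor pathway and 2 of the binding partners. Over all genes tested, those called higher dropped from 2597 to 858 in that setting. With slide row as a block, 0 relatives, 0 genes of the caspase list, 1 IAP gene in each direction, 3 genes of the death receptor pathway and 2 binding partners were called. That block called 11.5% of all genes, 999 lower and 902 higher. With 1 array left out, 1675 to 2036 of all genes were called lower, against 2602 with all arrays. Genes beyond the 3 largest changes of a list are named to complete its count and were chosen after their values were seen.

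Of 10 tested relatives of the members, 5 fell, 1 rose and 4 did not pass, with a median change of -0.32. Over the 8 relatives well above background on all 6 arrays, a choice made after seeing the data, the median was -0.19. The largest fall was that of Bnip3, a mitophagy receptor induced by hypoxia, with signals of 4.17, 4.18 and 4.62 in Vector and 2.74, 2.56 and 3.71 in YAYC. Vector 3 and YAYC 3 both stood above the other arrays of their group, and the groups did not overlap. The change was -1.32 (SE 0.34, limma adjusted p 0.0482), and further Bnip3 probes changed by -1.33 and -1.30 with limma adjusted p of 0.0549 and 0.0697. The Bnip3 call was lost without Vector 1 (-1.40), Vector 2 (-1.39), Vector 3 (-1.17), YAYC 1 (-1.19) or YAYC 2 (-1.10) and kept without YAYC 3 (-1.67). Bnip3l, another mitophagy receptor, fell by 0.64 (SE 0.084, limma adjusted p 0.00634), and its 3 further probes changed by -0.71, -1.33 and -0.67.

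Bcl2l2, which encodes the survival protein Bcl-w, fell by 0.39, and Bcl2l13 fell by 0.24. Bcl2l14 passed as lower (limma adjusted p 0.0469), but its probe was well above background on 0 of the 6 arrays, so no fold is given, and the call was lost whichever array was left out. Bcl2l12 rose by 0.62 (limma adjusted p 0.00852). The p53-induced BH3-only gene Bbc3, which encodes Puma, had a change of 0.043 (limma adjusted p 0.555). Bcl2l15 at 0.27, Becn1 at -0.13 and Bik at -0.93 did not pass either, and Bik was above background on 1 of 3 YAYC arrays. Bcl2a1d, Bcl2l10, Pmaip1 and Hrk lay below the filter, and Bcl2a1a and Bcl2a1b had no matched probe. With any single array left out, 1 to 3 relatives were called lower instead of 5.

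Downstream of the mitochondrion, 10 of 12 genes tested of the apoptosome and the caspases did not pass, and the median change was -0.096. Apaf1, the scaffold of the apoptosome, fell by 0.39 (SE 0.078, limma adjusted p 0.0220). Cytochrome c (Cycs) had a change of -0.014 and the initiator caspase gene Casp9 one of 0.13, and neither passed. The Apaf1 call was lost without Vector 2 (-0.39), Vector 3 (-0.35), YAYC 2 (-0.35) or YAYC 3 (-0.39).

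Inhibitor of apoptosis proteins (IAPs) and their antagonists split evenly. Of 13 tested, 3 fell and 3 rose, with a median of 0.0062. Xiap, the inhibitor that binds caspases directly, fell by 0.75 (SE 0.061, limma adjusted p 0.00172), while Xaf1, described as an antagonist of Xiap, rose by 1.07 (SE 0.080, limma adjusted p 0.00138). A further Xaf1 probe changed by 0.27 with a limma adjusted p of 0.535 and did not pass. Birc7 fell by 0.59 (limma adjusted p 0.0230), a call lost without Vector 1 (-0.58), Vector 2 (-0.51), YAYC 1 (-0.57) or YAYC 2 (-0.54). Its signal was dim, at -3.98 in Vector. With normexp background correction on the 75th percentile its change was -0.20, and the call was kept. Aifm1, a mitochondrial flavoprotein, fell by 0.39, and Naip2 at 0.31 and the protease gene Htra2 at 0.20 rose. Birc5 (survivin) had a change of 0.052 and Diablo, which encodes Smac, one of -0.13, and neither passed.

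In the death receptor pathway 5 of 12 tested genes rose, 2 fell and 5 did not pass, with a median of 0.24. Tnfrsf10b, the mouse TRAIL receptor, rose by 0.90 (SE 0.073, limma adjusted p 0.00168). The adaptor gene Fadd rose by 0.43 (SE 0.049, limma adjusted p 0.00427), Tnfrsf21 by 0.40, Daxx by 0.38 and the kinase gene Ripk1 by 0.34. The adaptor gene Traf2 fell by 0.49 (limma adjusted p 0.00837), though a further probe changed by -0.24 (limma adjusted p 0.285), and Cflar, which encodes the caspase-8 inhibitor c-FLIP, fell by 0.21. With any single array left out, 1 gene of this pathway was called lower instead of 2, and Traf2 was called each time. Fas was above background on 1 of 6 arrays, and Ngfr, Tnfrsf1a, Tnfrsf25 and Tradd did not pass, with changes of -0.13, -0.15, 0.32 and 0.15.

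Among 29 tested binding partners and regulators of the family, 6 rose, 3 fell and 20 did not pass, with a median of -0.013. Fbxw7, part of a ubiquitin ligase for Mcl1, rose by 0.65 (SE 0.054, limma adjusted p 0.00171), and its further probe changed by 0.48. Usp9x, a deubiquitinase of Mcl1, rose by 0.43 (limma adjusted p 0.00712). Dynll2, the light chain that holds Bmf on myosin motors, rose by 0.52 (SE 0.052, limma adjusted p 0.00290). A further Dynll2 probe changed by 0.25 (limma adjusted p 0.0215). Dynll1, which holds Bim on dynein, fell by 0.47 (SE 0.082, limma adjusted p 0.0151) at a dim signal of -3.17 in Vector, and the call was lost without Vector 1 (-0.43). Foxo3, a transcription factor known to induce Bim, rose by 0.36, Itpr1 by 0.33 and Ppif by 0.32, while the channel gene Vdac3 fell by 0.26 and the carrier gene Slc25a5 by 0.20. Trp53 had a change of -0.18 (limma adjusted p 0.0741). When each array was left out in turn, 0 or 1 of these genes were called lower instead of 3.

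**Figure D4:**
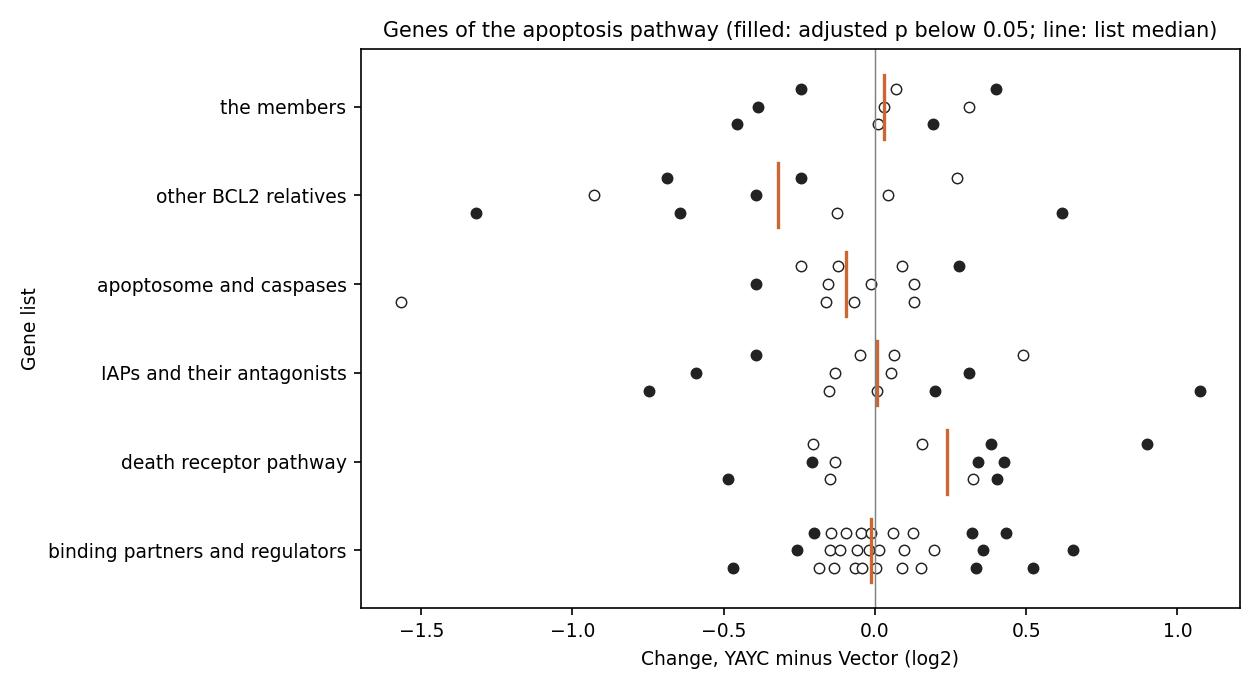
Change (YAYC minus Vector, log2) of each tested gene of the members and of 5 lists of the apoptosis pathway; filled circles passed at a limma adjusted p below 0.05, and the orange line is the median of the list. The medians run from -0.32 for other BCL2 relatives (-0.19 over those above background on all arrays) to 0.24 for the death receptor pathway, and the members spread to both sides of 0.

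Slide row was examined because YAYC 2 and 3 lay apart from the other arrays. Within the first row, where YAYC 1 alone stood against the 3 Vector arrays, the changes were -0.36 for Bax, -0.45 for Bak1, 0.43 for Bcl2l1, -0.27 for Mcl1 and 0.23 for Bid. These sizes were close to those over all arrays, but none passed, with limma adjusted p of 0.103 to 0.244 and the lone sample assumed to vary like the Vector arrays. A fit with row as a block gives the same changes, since it too sets YAYC 1 alone against the Vector arrays, and differs only in that YAYC 2 and 3 add to the estimate of the spread. In that fit limma adjusted p was 0.0411 for Bcl2l1 and above 0.05 for Bax, Bak1, Mcl1 and Bid. The second row held YAYC arrays only and gives no value.

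**Figure D5:**
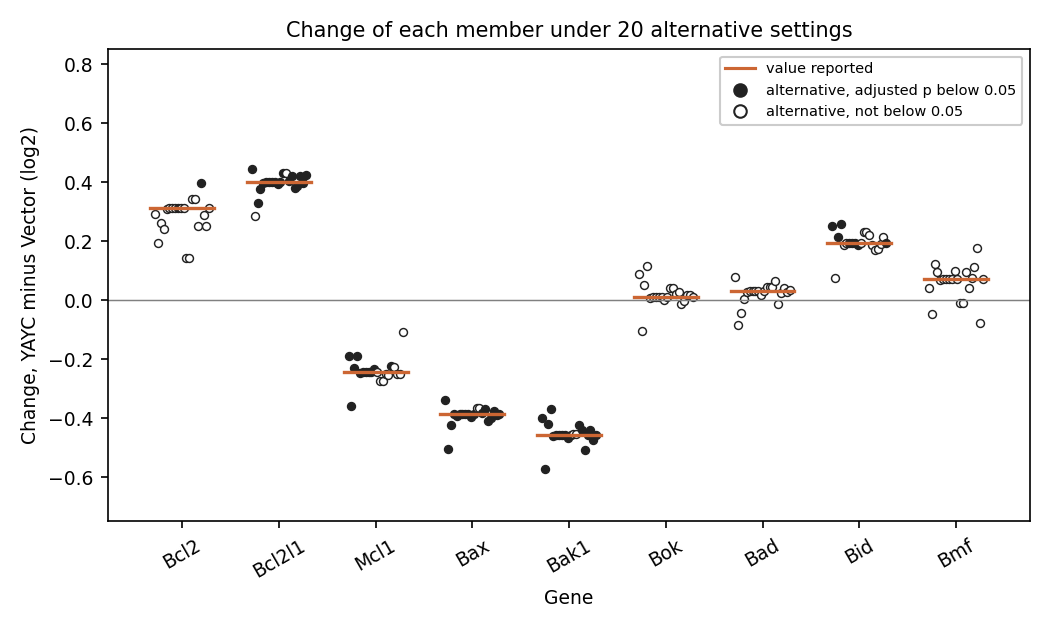
Change of each tested member (YAYC minus Vector, log2) under 20 alternative settings of scaling, background correction, filter, model and arrays; filled circles have a limma adjusted p below 0.05, and the orange bar is the value reported. Bax, Bak1 and Mcl1 lie below 0 and Bcl2l1, Bid and Bcl2 above 0 in all 20 settings, many of which could not turn the sign. Bok, Bad and Bmf fall on both sides of 0.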

How the data were processed

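The authors prepared labelled cDNA, as the paper names it, from total RNA. They hybridized it to Agilent SurePrint G3 arrays and ran Agilent Feature Extraction 10.10.1.1. The deposited scanner tables hold processed signals as linear intensity, corrected for background by that software. The deposited series matrix holds log2 values, which matched differences between arrays of the scaling used here to within 0.0076 over 43742 probes.

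Control and outlier spots were left out. Processed signals were taken to log2, each array's 75th percentile was subtracted, spots of a probe were averaged, and probes reaching the 20th percentile on all 3 arrays of a group were kept, 42126 of 55681 (245 lacked a value). Of 26392 probes with a curated mRNA accession, 25869 were matched to a RefSeq gene. A gene was read from its brightest tested probe. Groups came from the sample titles and were compared by limma 3.58.1 (R 4.3.3) in a two-sided test with no covariate, and p-values were adjusted by Benjamini-Hochberg over the probes tested. The fit was tested on simulated data.

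Members and lists were chosen with earlier results of these data known. Genes named were the members, the NF-Y subunits and, per list, up to 3 passing genes with the largest change. Some genes of the caspase list are not reported by name here. A rule that would name genes most like a member past 1.5-fold named none. Alternatives were other scalings, normexp with an offset of 50 (on median signals, since mean signals were not in the tables), filters, a variance trend, array weights, blocks, probe means and leaving out each array. The main fit did not pair arrays by replicate number. Deviations of same-numbered arrays correlated at 0.018, 0.067 and 0.0025, and those of differently numbered arrays at -0.081 to 0.063. Values this small cannot settle whether the numbers mark pairs. The number of arrays limits the precision.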

Additional observations from a re-analysis of the deposited data

How the results depend on the processing

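Bax, Bak1, Mcl1, Bcl2l1, Bid and Bcl2 kept their direction in all 20 alternatives, many of which could not turn it. The filters, the variance trend and the replicate block left these changes as they were, and both slide-row settings gave the same changes. Leaving out 1 array cannot turn the sign where the groups do not overlap, as for these genes. With arrays centred on their median, Bcl2l1 (0.28) and Bid (0.076) lost their calls, and Bok (-0.11), Bad (-0.085), Bmf (-0.046) and the further Mcl1 (-0.086) and Bad (-0.081) probes changed sign. This centring moved the median of all genes by -0.12. Both scalings subtract 1 value per array, so relative to that median the changes of the 9 members must equal those of the main scaling. Median centring called 858 genes higher and put 74.5% of the calls on the lower side, against 2602 of 5199. Normexp on the 75th percentile turned Bad to -0.042. Bid was not called in the series matrix (0.19) or without a filter (0.19), and Mcl1 not as the mean of its probes (-0.11). A variance trend called Bcl2 (0.31). The causes of the moves outside median centring were not tested.

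With the replicate number as a block, Mcl1 (-0.24, limma adjusted p 0.0618) and Bid (0.19, limma adjusted p 0.0813) were not called, and 1603 genes were lower and 1327 higher instead of 2602 and 2597. With slide row as a block, 999 were lower and 902 higher. Mcl1 (-0.27), Bax (-0.36), Bak1 (-0.45) and Bid (0.23) were not called, and Bmf was -0.011. Within the first row, 317 genes were lower and 266 higher. There Bcl2l1 (0.43), Mcl1 (-0.27), Bax (-0.36), Bak1 (-0.45) and Bid (0.23) were not called, and Bmf was again -0.011.

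The 3 lower members became 0 with slide row as a block, within the first row and with a minimum fold of 1.5, and the 2 higher members became 0 within the first row, on median centring and with that fold. One higher member was left at an adjusted p below 0.01, in the series matrix, without a filter and under either block. A minimum fold left 824 genes lower and 644 higher. With 1 array left out, 1675 to 2036 genes were lower and 1542 to 1918 higher, 2 to 3 members were lower and 1 to 2 higher. Changes then ranged from 0.25 to 0.40 for Bcl2, -0.25 to -0.22 for Mcl1, 0.17 to 0.22 for Bid, -0.014 to 0.026 for Bok, -0.015 to 0.063 for Bad and -0.077 to 0.18 for Bmf. The pairs kept their direction in 8 of 8 alternatives. Of these, 6 left out 1 array, which cannot turn the direction of pairs whose groups do not overlap, as in all 4. Mcl1 minus Bak1 was 0.49 with the further Mcl1 probe, chosen after seeing the data. Signal near background leaves Bcl2l11 unmeasured, and 3 arrays a group limit the size of change that can be detected.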
